A study of Mus musculus with 46 samples.

Results

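The 10 mouse ovarian follicles taken 4 h after human chorionic gonadotropin (hCG) in batch 1 were compared with each other. They were chosen by their labels, as all libraries of that time and batch, and they are 10 of the 46 follicles of the series. Each library holds the amplified polyadenylated RNA of 1 follicle from CD-1 mice, which are outbred. The follicles had grown for 8 days inside alginate gel, 1 in each well. All 10 then received the same medium, which held hCG at 1.5 IU/ml, epidermal growth factor (EGF) at 10 ng/ml, recombinant follicle-stimulating hormone (FSH) at 10 mIU/ml and 10% fetal bovine serum. There were therefore no groups among them, and the question was which genes differed from follicle to follicle and which differed together. The labels tie no follicle to an animal, so some may come from the same animal, while the tests treat them as independent. The p-values therefore speak for these follicles only, and differences between them may be technical. In a library from a whole follicle, fewer cells of a type and less RNA per cell cannot be told apart.

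hCG acts through the receptor for luteinizing hormone (LH), carried mainly by theca cells and the outer granulosa cells, and raises cyclic AMP. Those cells release EGF-like ligands that pass the signal to granulosa and cumulus cells, where prostaglandin synthase, hyaluronan-binding matrix proteins and the progesterone receptor are switched on before the follicle ruptures. Granulosa cells meanwhile turn from making estrogen to making progesterone, and Sult1e1, estrogen sulfotransferase, inactivates estrogen by adding a sulfate group.

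The total count per library ranged from 241442 in follicle 10 to 3284746 in follicle 2, with a median of 1789242. The next lowest was 1250524, in follicle 8. Follicle 10 also had the fewest genes with a count, 8964 against 12366 to 13634 in the others, and the highest share of counts in mitochondrially encoded genes, 11.6% in a range that began at 7.85%. Across genes its highest correlation with any other follicle was r = 0.846, while each of the others reached at least 0.923 with some follicle. The first principal component held 37.2% of the variance and placed follicle 10 far from the rest. Its r with log2 total count was −0.834. Without follicle 10 the first component held 29.1%, and its r with log2 total count over the other 9 follicles was 0.588. The sign of a component is arbitrary, and these r were not tested. Granulosa cell markers were present in every follicle, at a summed level of 16129 CPM (read counts scaled to a common library size with TMM factors) in follicle 10 to 39433 in follicle 6. Most of that sum came from Inha (371745 counts over the 10 libraries) and Inhba (127443). Foxl2, a defining granulosa transcription factor, had only 16 counts in all 10 libraries together.

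Sult1e1 (chr5:87575969-87591594, GRCm38) stood further above the trend of spread against level than all but 1, mt-Co3, of the 7528 genes tested. Its level in follicles 1 to 10 was 10972, 3129, 6077, 14510, 5539, 9354, 164, 2020, 186 and 266 CPM. Follicles 7, 9 and 10 were low and follicles 1, 4 and 6 were high, and the highest level was 88.6-fold the lowest. The mean was 5222 ± 5026 CPM (SD, n = 10), a coefficient of variation of 96.3%. Its dispersion was 48.9 times the value that the trend over all genes gave for its level, where the median ratio over all genes was 1.01.

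No gene passed the test of spread against that trend. With edgeR's quasi-likelihood dispersions and Benjamini-Hochberg adjustment, 0 of 7528 genes were called (percent called 0), the lowest adjusted p was 0.205, and 521 genes (6.92%) had an unadjusted p under 0.05. DESeq2 marked 110 of the genes (1.46%) as dispersion outliers, Sult1e1, Areg, Tnfaip6, Pgr and Lhcgr among them. With no filter on low counts, edgeR called 307 of 16871 genes, among them Sult1e1 (adjusted p = 5.06e-05), Tnfaip6 (0.000167), Areg (0.000212), Pgr (0.000251), Ereg (0.000329) and Star (0.0117). In that setting the trend borrowed more strength across genes, with 15.2 prior degrees of freedom against 4.76. The ratios to the trend are therefore given below as descriptions and carry no call.

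**Figure D1:**
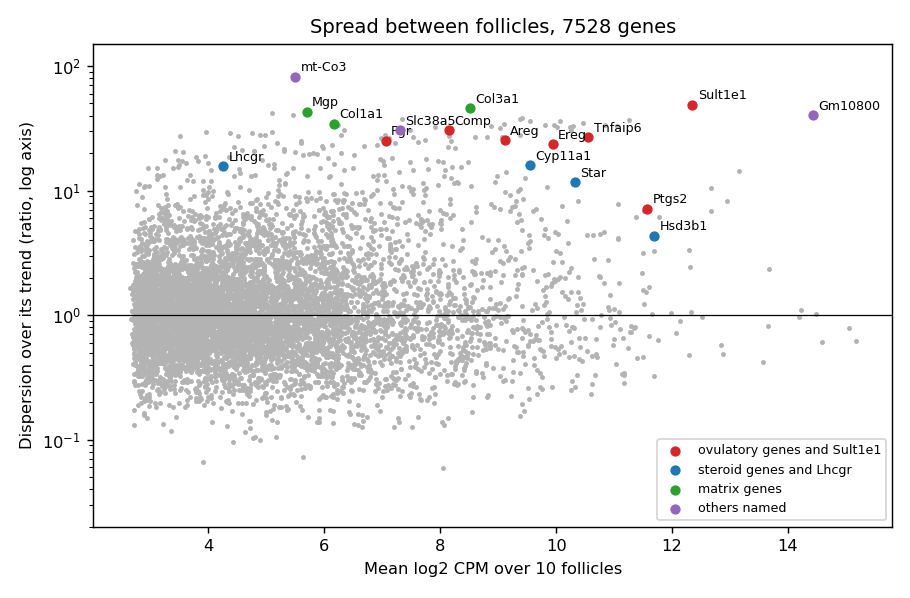
Each point is 1 of 7528 genes, with its mean log2 CPM over 10 follicles on the x axis and its dispersion divided by the trend on the y axis, a log scale; named genes are marked. Sult1e1 lies at 48.9 and Ptgs2 at 7.14, while the median gene lies at 1.01.

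The EGF-like ligands, which carry the LH signal from cell to cell, spread widely. Areg (amphiregulin, chr5:91139599-91148432) was at 1042, 293, 395, 1927, 489, 672, 63.6, 440, 28.2 and 167 CPM in follicles 1 to 10. Its low follicles were again 9, 7 and 10 and its high follicles 4 and 1, a 68.4-fold range at 25.3 times the trend. Ereg (epiregulin), its neighbor on chromosome 5, ranged 88.2-fold, from 31.8 CPM in follicle 9 through a median of 733 to 2805 in follicle 4. Btc (betacellulin), on the same chromosome, ranged 5.75-fold, from 699 CPM in follicle 7 to 4021 in follicle 6. Of the 12 genes measured on the list of EGF ligands and ERK feedback, these 3 had an unadjusted p for spread under 0.05. That was so for 6.92% of all 7528 genes tested, and the median ratio of the list was 2.24.

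Genes of the expanding cumulus matrix did not all share that order. Tnfaip6 (chr2:52038009-52056686), which links hyaluronan chains to matrix proteins, was at 3318, 855, 1552, 4408, 1086, 1956, 150, 1234, 107 and 314 CPM. Follicles 7, 9 and 10 were the lowest for it too, and its range was 41.3-fold at 26.7 times the trend. Vcan (versican, a matrix proteoglycan) was at 1265, 445, 888, 1312, 538, 865, 309, 471, 142 and 251 CPM. Ptx3 (pentraxin 3, a matrix cross-linker) ran from 3.98 CPM in follicle 10, where that is 1 count, to 83.1 in follicle 6. Has2, the enzyme that makes hyaluronan, stood in another order, with its highest level, 403 CPM, in follicle 9, where Areg and Tnfaip6 were lowest, and its lowest, 83.5 CPM, in follicle 10. Of the 9 genes of this list that were tested, 6 had an unadjusted p for spread under 0.05, against 6.92% of all genes. The median ratio of the list was 5.85.

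Ptgs2 (chr1:150100031-150108227), the inducible prostaglandin synthase, spread less. Its level was 5573, 2312, 3969, 5248, 2489, 4330, 1891, 1647, 1086 and 1734 CPM, with a mean of 3028 ± 1614 (SD, n = 10) and a 5.13-fold range. Follicles 1, 4 and 6 were the highest and follicle 9 the lowest. Pgr (chr9:8899833-8968611), the progesterone receptor, was at 273, 46.7, 169, 374, 114, 200, 8.55, 71.4, 9.54 and 43.8 CPM, a 43.8-fold range at 25.1 times the trend. Runx1, a transcription factor of the ovulatory granulosa cell, ran from 119 CPM in follicle 9 to 635 in follicle 4. Adamts1, a versican-cleaving protease and a known target of the progesterone receptor, kept to a 3.53-fold range, from 279 CPM in follicle 9 to 984 in follicle 1. Serpinb2, an inhibitor of plasminogen activators, ranged from 24.8 CPM in follicle 3 to 370 in follicle 10, with a slope on Ptgs2 of −0.10 ± 0.56 that did not pass (edgeR adjusted p = 0.978).

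**Figure D2:**
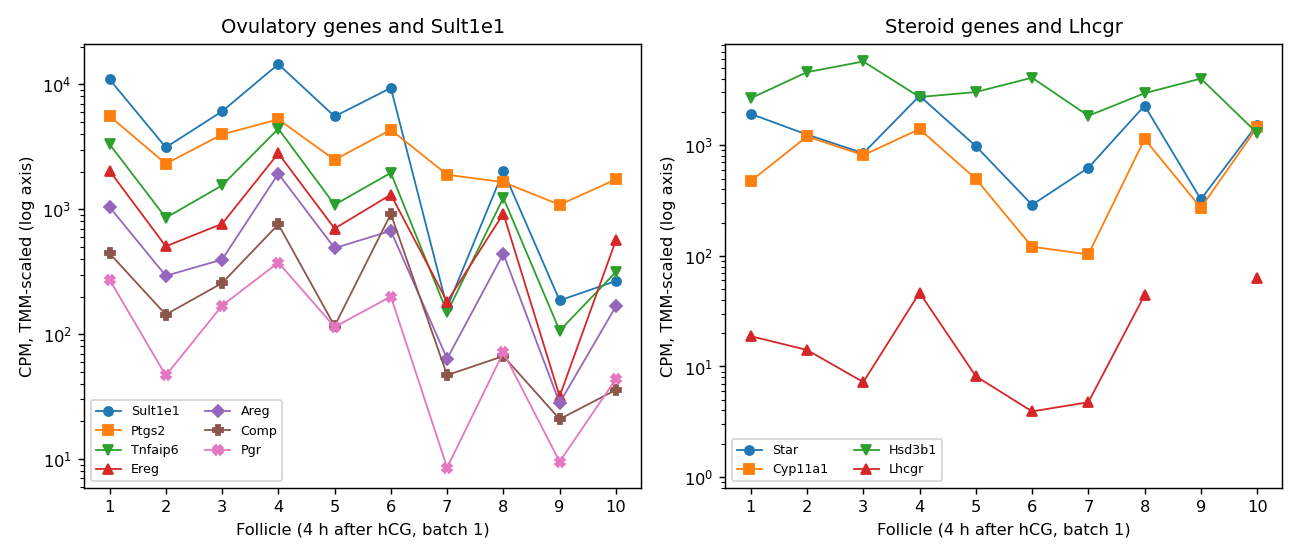
CPM on a log axis for ovulatory genes and for steroid genes in each of the 10 follicles; a line joins the values of 1 gene and implies no order, and Lhcgr in follicle 9, which had 0 counts, is not drawn. Sult1e1 lies between 164 CPM in follicle 7 and 14510 in follicle 4, and Ptgs2 between 1086 and 5573.

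Ptgs2, Areg, Tnfaip6, Pgr and Sult1e1 varied together. Among 13 measures (11 genes, the total count and the mitochondrial share) 78 pairs were compared by Pearson's r of log2 CPM, with a 2-sided permutation test of 100000 resamples and Benjamini-Hochberg adjustment over the pairs, and 12 passed, all positive (21 at an unadjusted p under 0.05). Of the 12, 10 were all the pairs among these 5 genes. Areg and Tnfaip6 gave the highest r, 0.983 (adjusted p = 0.00078), and Pgr and Sult1e1 gave 0.940 (adjusted p = 0.00078, Spearman's rho 0.988). Ptgs2 and Sult1e1 gave 0.861 (adjusted p = 0.0113, rho 0.903), and 0.797 without the 2 follicles farthest from the median of Ptgs2. Ptgs2 and Areg gave 0.852 (adjusted p = 0.00913). All 12 pairs kept an unadjusted p under 0.05 in an exact permutation test without 2 such follicles. Among the 7 follicles with the higher Sult1e1 alone, r with Sult1e1 was 0.953 for Ptgs2 (exact permutation p = 0.000397), 0.931 for Pgr (0.00298), 0.846 for Tnfaip6 (0.0192) and 0.819 for Areg (0.024). These 7 follicles were chosen by Sult1e1 itself after its values were seen, so these values are a description. Leaving out follicle 4 gave r = 0.83 for Ptgs2 and Sult1e1, with an adjusted permutation p of 0.0502, and leaving out follicle 9 gave 0.77 for Ptgs2 and Areg, with 0.0543.

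Cell type markers and RNA quality were set beside the 5 genes, and their part in these correlations was not tested. The mitochondrial share gave r = −0.673 with Tnfaip6 (unadjusted permutation p = 0.0316, adjusted 0.154, rho −0.745) and −0.655 with Sult1e1 (0.0384, adjusted 0.166, rho −0.624). It gave −0.576 with Areg, −0.567 with Ptgs2 and −0.546 with Pgr (rho −0.673). Without the 2 follicles farthest from the median of the gene, r was −0.872 for Tnfaip6 (exact permutation p = 0.00546) and −0.760 for Areg (0.0303). It was then −0.673 for Pgr (exact permutation p = 0.0597) and −0.477 for Ptgs2 (0.234). Summed granulosa markers, lowest in follicles 10, 7, 8 and 9, gave r = 0.763 with Sult1e1 (unadjusted permutation p = 0.0076, rho 0.758) and 0.630 with Ptgs2 (0.0443, rho 0.733). The first of these was 0.595 without the 2 follicles farthest from the median of the markers (exact permutation p = 0.127). Smooth muscle markers gave −0.622 with Sult1e1 (unadjusted permutation p = 0.0568, rho −0.612) and −0.633 with Ptgs2 (0.0488, rho −0.624). Acta2 made up most of the smooth muscle sum (11762 counts), ahead of Tagln (534), while Myh11 had 6 counts and Des 1. The granulosa and smooth muscle sums thus follow mainly Inha, Inhba and Acta2, and do not by themselves give the share of a cell type. None of the 14 relations with marker lists passed after adjustment, the lowest adjusted permutation p being 0.106.

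No pair with depth passed. The r with log2 total count was 0.169 for Ptgs2, 0.259 for Sult1e1 and between −0.049 and 0.081 for Areg, Tnfaip6 and Pgr. It was −0.623 for Lhcgr (rho −0.709, unadjusted permutation p of rho 0.0269, adjusted 0.14), −0.449 for Star (rho −0.673, 0.0391, adjusted 0.169) and −0.474 for Cyp11a1, and the part of depth in the levels of these 3 genes was not tested further. Given the total count as a partial correlation 11 of the 12 pairs still passed. In the fit of every gene on log2 total count, edgeR called 0 of 7528 genes (percent called 0), with 629 at an unadjusted p under 0.05 and a lowest adjusted p of 0.0550, while RLE factors called 2 and DESeq2 called 45.

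**Figure D3:**
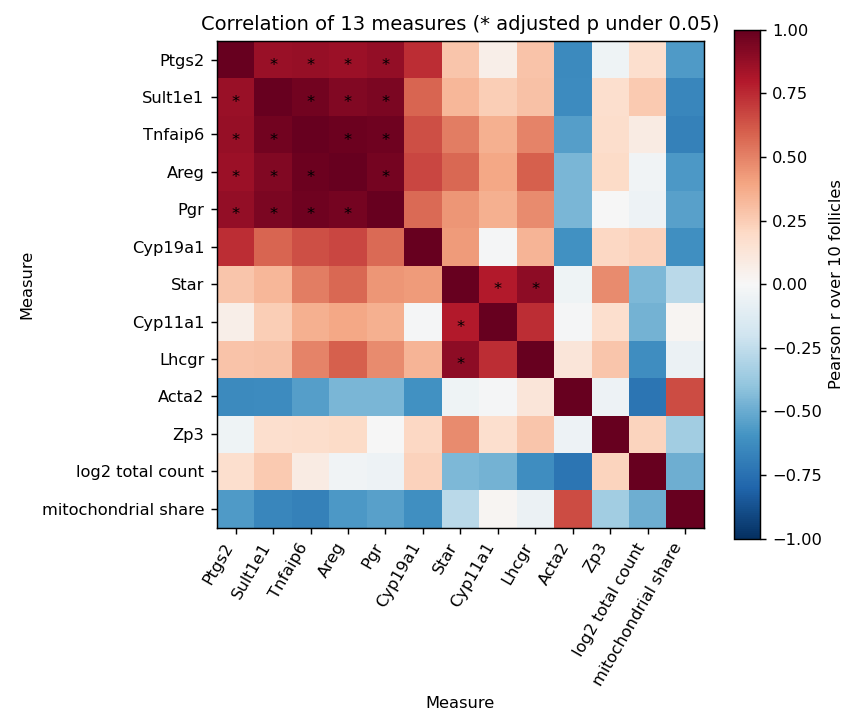
Pearson r over 10 follicles between each pair of 13 measures, on a color scale, with a star for an adjusted p under 0.05. Ptgs2, Areg, Tnfaip6, Pgr and Sult1e1 form a block of high r, and Star joins Cyp11a1 (0.791) and Lhcgr (0.892).

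Promoter sequences were read for genes whose levels went together. RefSeq promoters (GRCm38.p6, 250 bases before the start to 50 after) were found for 7 of the 8 genes looked up, and are printed for 2 ovulatory genes and for Sult1e1 to show where the motifs of cyclic AMP signaling lie. Capitals mark a match to the cyclic AMP response element TGACGTCA in Areg (chr5:91139349-91139648, plus strand) and to the AP-1 motif TGANTCA in Tnfaip6 (chr2:52037863-52038162, plus strand). Sult1e1 (chr5:87591562-87591861, minus strand) held no exact match to either, nor to the NR5A motif CAAGGTCA.

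Areg: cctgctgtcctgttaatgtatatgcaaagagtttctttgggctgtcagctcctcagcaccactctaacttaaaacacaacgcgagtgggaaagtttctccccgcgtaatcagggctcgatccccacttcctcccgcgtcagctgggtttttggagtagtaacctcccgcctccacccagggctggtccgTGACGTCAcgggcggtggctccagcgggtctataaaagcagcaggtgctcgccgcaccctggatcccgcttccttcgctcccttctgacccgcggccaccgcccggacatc

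Tnfaip6: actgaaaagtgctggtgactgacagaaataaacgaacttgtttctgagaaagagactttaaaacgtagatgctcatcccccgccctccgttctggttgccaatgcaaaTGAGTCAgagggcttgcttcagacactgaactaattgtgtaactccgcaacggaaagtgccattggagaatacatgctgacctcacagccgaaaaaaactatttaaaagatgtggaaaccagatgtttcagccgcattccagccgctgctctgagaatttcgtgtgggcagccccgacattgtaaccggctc

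Sult1e1: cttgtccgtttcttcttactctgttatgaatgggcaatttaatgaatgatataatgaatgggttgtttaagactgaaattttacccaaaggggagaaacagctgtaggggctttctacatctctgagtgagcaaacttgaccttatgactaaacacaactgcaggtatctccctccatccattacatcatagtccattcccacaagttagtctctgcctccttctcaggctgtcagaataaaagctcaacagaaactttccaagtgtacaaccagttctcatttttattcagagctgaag

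Searched on both strands, the cyclic AMP element was in 1.79% of 32851 promoters of this length, the AP-1 motif in 7.81% and the NR5A motif in 1.56%. The windows of Ptgs2, Pgr, Cyp11a1 and Lhcgr held no exact match to any of the 3 motifs, and partial matches were not searched. A match is only a description of the letters.

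Beyond the chosen pairs, 84 of 7527 genes (1.12%) had a slope on log2 CPM of Ptgs2 that passed edgeR's quasi-likelihood test with Benjamini-Hochberg adjustment, 54 rising (0.717%) and 30 falling (0.399%). A slope of 1 means that the gene doubled where Ptgs2 doubled. Comp, a secreted matrix protein of the thrombospondin family, was at 443, 144, 256, 757, 116, 917, 47.0, 66.8, 20.9 and 35.8 CPM and rose more steeply than Ptgs2, by 2.30 ± 0.25 (SE; adjusted p = 0.00155). Vcan rose by 1.22 ± 0.13 (adjusted p = 0.00137), Pcdh9, a protocadherin, by 1.79 ± 0.21 (0.00311) and Ephx2, which hydrolyzes fatty acid epoxides, by 0.99 ± 0.11 (0.00137). These 4 were called without each follicle in turn. With all libraries thinned to 241442 counts, Vcan stayed called, while Comp (edgeR adjusted p = 0.27) and Pcdh9 (0.43) did not. The neuropeptide Adcyap1, which the progesterone receptor is known to induce, rose by 1.93 ± 0.28 (adjusted p = 0.0089), Fgf5, a growth factor, by 1.92 ± 0.29 (0.0089) and Ptx3 by 1.28 ± 0.20 (0.0089). Each of these 3 lost its call without follicle 9 (edgeR adjusted p = 0.11), and Ptx3 also after thinning (slope 0.79, adjusted p = 0.999). Pgr rose by 1.89 ± 0.34 (adjusted p = 0.024), with edgeR adjusted p of 0.063, 0.11, 0.21 and 0.056 without follicle 1, 4, 9 or 10, 0.075 with no filter on low counts and 0.32 after thinning. The slope of Sult1e1 itself was 2.37 ± 0.57, which did not pass (adjusted p = 0.108).

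Where mean log2 CPM was 4 or more, Fbxo32, a ubiquitin ligase of muscle wasting, had the steepest called fall on Ptgs2, at 15.78, 68.32, 25.73, 15.03, 29.23, 31.03, 127, 52.8, 219 and 143 CPM. Its slope was −1.59 ± 0.20 (edgeR adjusted p = 0.00314; 0.068 without follicle 9 and 0.27 after thinning). Esr2, estrogen receptor beta, which marks the growing follicle, was highest in follicle 9 at 91.3 CPM and lowest in follicle 1 at 8.26, with a slope of −1.10 ± 0.21 (adjusted p = 0.0265). The call of Esr2 was lost without follicle 1 (edgeR adjusted p = 0.1), 4 (0.11), 6 (0.059) or 9 (0.41), and with no filter on low counts (0.069), and after thinning its slope was −0.61 (0.999). The number of genes called on Ptgs2 depended on few follicles: it was 10 without follicle 9, 21 without follicle 4, 37 without follicle 1 and 168 without follicle 8, and 6 with thinned libraries. Every fit kept the sign of every gene called with all 10 follicles wherever the gene was tested.

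On log2 CPM of Sult1e1, 66 of 7527 genes (0.877%) passed the same test, 48 rising (0.638%) and 18 falling (0.239%). Tnfaip6 rose by 0.69 ± 0.07 on the log2 scale for each doubling of Sult1e1 (edgeR adjusted p = 0.000363), Pgr by 0.74 ± 0.08 (0.000745), Areg by 0.66 ± 0.09 (0.00793), Btc by 0.34 ± 0.04 (0.00102) and Vcan by 0.37 ± 0.05 (0.00479). Gsta4, a glutathione transferase that detoxifies lipid peroxidation products, rose by 0.55 ± 0.06 (adjusted p = 0.000745), from 35.8 CPM in follicle 10 to 730 in follicle 4. Fbxo32 fell by 0.51 ± 0.05 (adjusted p = 0.000488). These 7 genes were called without each follicle in turn. After thinning, Tnfaip6, Areg, Btc and Vcan stayed called, while Pgr (edgeR adjusted p = 0.27) and Fbxo32 (0.13) did not. Ptgs2 rose by 0.27 ± 0.05 and Fdx1, the electron donor of the first steroid enzyme, by 0.22 ± 0.04 (each adjusted p = 0.0216). The call of Ptgs2 was lost without follicle 1 (edgeR adjusted p = 0.063), 4 (0.076), 9 (0.12) or 10 (0.051), and that of Fdx1 without follicle 4 (0.088), 6 (0.053), 7 (0.057) or 9 (0.15). Thinning also ended both calls (edgeR adjusted p = 0.0549 for Ptgs2 and 0.12 for Fdx1). Ereg did not pass (slope 0.51 ± 0.13, adjusted p = 0.136). The number called was 15 without follicle 9, 25 without follicle 4, 31 without follicle 1, 110 without follicle 7, 105 with the total count in the model and 13 after thinning. Of the genes called on Sult1e1, 32 were also called on Ptgs2, all with the same sign, which is 48.5% of the former and 38.1% of the latter. The 2 fits share all 10 libraries and their covariates are correlated.

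Of the genes of steroid synthesis and its control, Star, Cyp11a1 and Lhcgr were above their medians in follicles 8 and 10, where Ptgs2 and Sult1e1 were below theirs. Star (chr8:25806555-25815982), which brings cholesterol into mitochondria and limits progesterone synthesis, was at 1919, 1249, 847, 2798, 982, 289, 626, 2282, 324 and 1539 CPM, with a mean of 1286 ± 842 (SD, n = 10) and a 9.67-fold range at 11.6 times the trend. Follicle 6, high for Ptgs2 and Sult1e1, was lowest for Star, and follicle 4, high for both, was highest. Cyp11a1 (chr9:58006411-58027023), which makes the first steroid from cholesterol, was at 474, 1201, 814, 1400, 496, 121, 103, 1138, 272 and 1456 CPM. Its lowest follicles were 7, 6 and 9. Hsd3b1, which makes progesterone, ranged 4.44-fold, from 1289 CPM in follicle 10, the highest for Cyp11a1, to 5722 in follicle 3. Of the 18 tested genes of progesterone synthesis, 4 had an unadjusted p for spread under 0.05, Star, Cyp11a1, Lhcgr and Por. The share over all genes was 6.92%, and the median ratio of the list was 2.50. Of 17 cholesterol synthesis genes 0 had such a p, with a median ratio of 1.41 and no adjusted call by edgeR.

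Lhcgr (chr17:88716481-88791990), the LH receptor through which hCG acts, was thinly counted, with 260 counts in all. It was at 18.8, 14.1, 7.22, 46.5, 8.16, 3.92, 4.75, 44.3, 0 and 63.6 CPM, and it was highest in follicles 10, 4 and 8. Star and Lhcgr were correlated (r = 0.892, rho 0.915, adjusted permutation p = 0.00267). Star and Cyp11a1 gave r = 0.791 (adjusted permutation p = 0.0448, rho 0.733). The rho of that pair did not pass (adjusted permutation p = 0.113), and its r did not in 9 of 14 other settings: given the total count (adjusted permutation p = 0.0674) and without follicle 2 (r = 0.80, 0.0715), 3 (0.81, 0.0593), 4 (0.76, 0.119), 5 (0.79, 0.086), 6 (0.70, 0.141), 8 (0.77, 0.0814), 9 (0.80, 0.0506) or 10 (0.79, 0.0787). The r of Star was 0.276 with Ptgs2 (adjusted permutation p = 0.630) and 0.335 with Sult1e1, and neither passed. No gene passed on Star across the table: edgeR called 0 of 7527 (percent called 0), with 405 at an unadjusted p under 0.05. DESeq2 called 25, of which 20 rose with Star. Among these were Lhcgr, Cyp11a1 and the matrix genes Bgn (DESeq2 slope 1.75), Dcn (1.29) and Col6a2 (1.29). The lowest edgeR p was that of Lhcgr (slope 1.48 ± 0.25, adjusted p = 0.323). Without follicle 6, edgeR called 9.

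Other estrogen genes were low. Cyp19a1, aromatase, had a median of 24.5 CPM and its highest level, 70.4, in follicle 4, where Sult1e1 was also highest. Its r with Ptgs2 was 0.737 (adjusted permutation p = 0.0848), which did not pass. Hsd17b1, which reduces estrone to estradiol, ran from 3.98 CPM in follicle 10, where that is 1 count, to 124 in follicle 3. Inhba, a subunit of inhibins and activins, ran from 967 CPM in follicle 10 to 11278 in follicle 6, at 10.5 times the trend. By contrast Inha, the inhibin alpha subunit, stayed between 12645 and 23901 CPM at 1.09 times the trend. Fshr, the FSH receptor, was at 3.98 to 14.1 CPM in every follicle, the lowest being 1 count in follicle 10. Of 21 tested genes of the follicular phase 6 had an unadjusted p for spread under 0.05, with a median ratio of 2.63. Of 12 genes of estrogen synthesis, sulfation and receptors 4 did, with 1.92, against 6.92% of all genes. Such shares were not particular to ovulatory and steroid lists. Of 10 theca and stroma markers 7 had such a p, of 18 hypoxia and glycolysis genes 5 and of 20 immediate early genes 5. Of 24 cell cycle genes 1 did and of 10 heat shock genes 0.

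Stroma genes formed a pattern apart from that of Ptgs2 and Sult1e1. Col3a1 (chr1:45311538-45349706), a fibrillar collagen of connective tissue, was at 97.7, 86.2, 25.3, 180, 396, 14.6, 103, 1341, 48.6 and 1452 CPM, at 45.7 times the trend. Follicles 8 and 10 stood above all others. Among the 100 genes with the highest ratios, 13 more had r of at least 0.9 with it, among them Mgp, Col1a1, Col1a2, Dcn, Bgn and Sparcl1, a group formed after the values were seen. The 14 genes took 0.556% of counts in follicle 10, 0.460% in follicle 8 and 0.0177% in follicle 3, with a median of 0.0562%. The 17 theca and stroma markers summed to 5282 CPM in follicle 10 and 4313 in follicle 8, and to 1232 to 3052 in the others. Over all libraries Vim gave most counts of that list (29863), ahead of Col3a1 (3763). Endothelium markers reached 147 CPM in follicle 10 and 70.7 in follicle 8, against at most 24.8 elsewhere, and leukocyte markers ranged from 0.454 to 95.5 CPM with Ptprc at 0. Star, Cyp11a1 and Lhcgr were also high in follicles 8 and 10, which had the lowest total counts (1250524 and 241442). The parts of the stroma and of depth in that were not tested. Over the 10 follicles, r with Star was 0.514 for the theca and stroma markers, 0.633 for endothelium and 0.629 for leukocyte markers. For smooth muscle markers it was −0.008, and no test was run on these r. Cyp17a1, the defining enzyme of theca cells, had 77 counts in all and at most 11.6 CPM. Acta2, smooth muscle actin, ran from 401 CPM in follicle 4 to 1503 in follicle 10, and its r of −0.730 with the total count did not pass (adjusted permutation p = 0.0996). Oocyte markers summed to 4.64 to 131 CPM, and Zp3, a zona pellucida protein, had 55 counts in all.

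The group built in the same way around Sult1e1 held Comp, Tnfaip6, Areg, Pgr, Gsta4 and Sfrp2, an inhibitor of WNT signaling. Its 7 genes took 2.37% of counts in follicle 4, 1.61% in follicle 1 and 1.40% in follicle 6. They took 0.0412% in follicle 7, 0.0424% in follicle 9 and 0.0899% in follicle 10. The remaining groups were mainly provisional gene models. Around Gm10800, 12 such models took 16.0% of counts in follicle 7 and 0.453% to 2.93% in the others. Each shares 36.2% to 94.4% of its 31-base words with others of the group, so reads may have been split between them and their single levels are uncertain. Around Hddc3, 26 genes (17 of them provisional) took 4.63% of counts in follicle 1, 3.27% in follicle 7 and 1.74% in follicle 8, against 0.150% to 0.849% elsewhere. This group included Kdm5d, which lies on chromosome Y. Of its 9 genes with a known transcript, 8 shared 31-base words with others of the group (median 7.59%, at most 17.9%). The single levels of these genes are therefore uncertain too. The gene with the highest ratio, mt-Co3, a subunit of cytochrome oxidase, was at 179 CPM in follicle 2 and 234 in follicle 9 and at most 0.475 CPM elsewhere. Over all follicles mt-Co1 was at 2905 to 23423 CPM and mt-Co2, of the same enzyme, at 1237 to 2648. The counts of mt-Co3 may therefore not give its level, and why they were near 0 elsewhere was not tested.

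**Figure D4:**
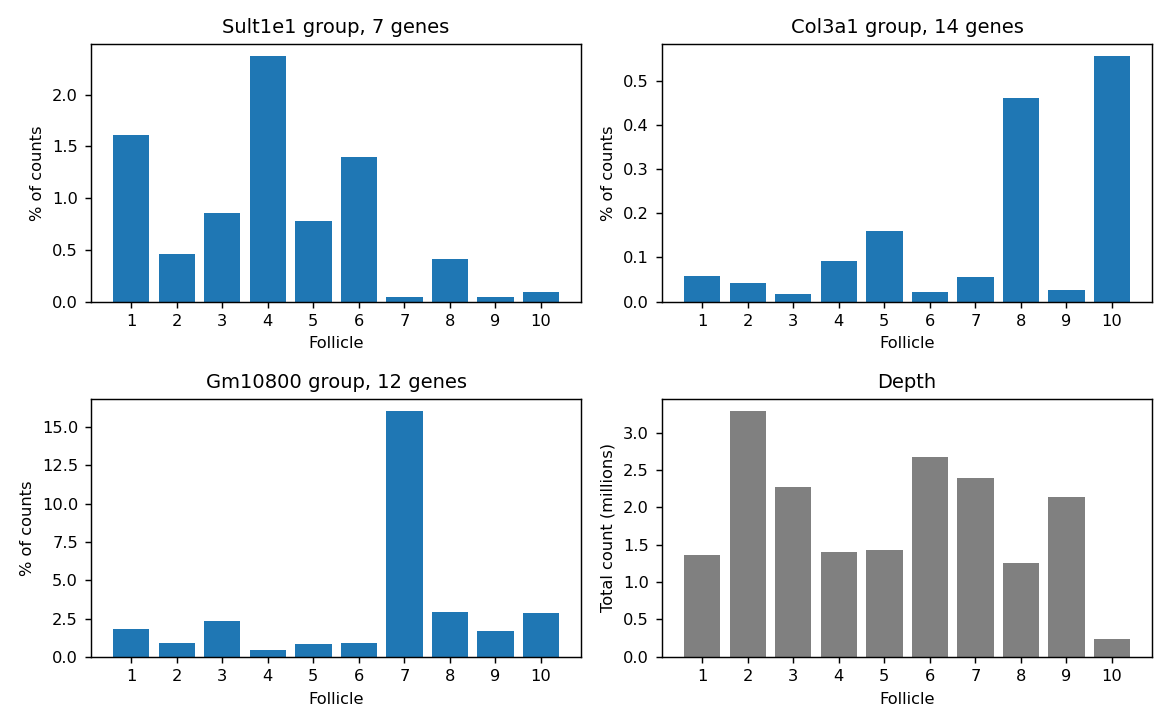
Bars give the percent of each follicle's counts in the groups around Sult1e1, Col3a1 and Gm10800, and the total count, each axis starting at 0. The Sult1e1 group is highest in follicle 4 (2.37%), the Col3a1 group in follicles 10 and 8, and the Gm10800 group in follicle 7 (16.0%).

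The same pairs were then computed in follicles of batch 1 at other times, each time alone and with no test between times. At 1 h the value of Sult1e1 was the same in every follicle, so only 66 of the pairs could be computed there. Among 11 follicles at 8 h, 0 of 78 pairs passed by r in the permutation test, with 19 at an unadjusted p under 0.05. By rho, 5 passed (each adjusted permutation p = 0.0451): Star with Cyp11a1 (0.836) and with Sult1e1 (0.836), and Cyp19a1 with Ptgs2 (−0.827), with Star (−0.845) and with Sult1e1 (−0.882). There Pgr and Sult1e1 gave r = 0.833 (adjusted permutation p = 0.077) and Ptgs2 and Sult1e1 0.741 (unadjusted p = 0.00636, adjusted 0.0992). Every other pair among Ptgs2, Areg, Tnfaip6, Pgr and Sult1e1 was lower at 8 h. Their r ran from 0.102 for Tnfaip6 and Pgr to 0.722 for Ptgs2 and Areg, with 0.289 for Tnfaip6 and Sult1e1 and 0.353 for Areg and Tnfaip6. Among 10 follicles at 1 h, 3 pairs passed, which were Star with Cyp11a1 (r = 0.933, adjusted permutation p = 0.0106), Star with Lhcgr (0.847, 0.0455) and Cyp11a1 with Lhcgr (0.919, 0.0142). By rho only the first of them passed at 1 h (rho 0.964, adjusted permutation p = 0.0033), with 0.122 and 0.0581 for the other 2. No pair among Ptgs2, Areg, Tnfaip6 and Pgr passed at 1 h. Their r ran from −0.364 for Tnfaip6 and Pgr to 0.460 for Ptgs2 and Tnfaip6. At 8 h edgeR called 347 of 8061 genes on Sult1e1 (4.3%). Of the 66 genes called on it at 4 h, 59 could be tested at 8 h, 43 (72.9%) had the same sign there, against 55.9% of all genes tested at both times, and 17 were called with that sign. On Ptgs2, 1 gene (0.0124%) was called at 8 h, and 56 of 72 (77.8%) had the same sign, against 54.8% of all genes.

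Batch 2 held 3 more follicles at 4 h. Sult1e1 was at 4781, 182 and 257 CPM in them, Ptgs2 at 3752, 94.1 and 80.9, and Pgr at 146, 10.6 and 13.2. The first of the 3 was thus high and the other 2 low for all 3 genes. That was not particular to them. Star (999, 215 and 266 CPM), Cyp11a1 (708, 273 and 423), Lhcgr (21.4, 4.64 and 1.76) and Inhba (14294, 2849 and 2486) were also highest in the first. Has2 (113, 70.9 and 114) and Serpinb2 (75.2, 81.5 and 410) were not, and Acta2 was lowest there (119, 879 and 1431). Col3a1 was at 51.2, 387 and 921 CPM in the same follicles, low in the first.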

How the data were processed

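Per the labels' protocols, polyadenylated RNA of single follicles was amplified with Smart-Seq2, which does not mark strand, and sequenced as paired ends with Nextera XT. Per the submitters' processing notes, HISAT2, Partek and DESeq2 were used with GRCm38, with no versions given. The authors deposited whole-number counts for 25147 genes, adjusted between batches with ComBat-seq according to the table's name, with settings not stated, so spread can carry that adjustment. They also deposited TPM for 25122 genes. In both, 10 columns that match none of the described samples were left out.

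The 10 follicles' counts entered edgeR 4.0.16 (R 4.3.3; TMM factors, summed count of at least 100, robust quasi-likelihood fit). Dispersions were tested against their trend with an intercept only. Slopes were tested on log2 CPM (prior count 2) of Ptgs2, Star and Sult1e1 and on log2 total count, with SE taken as the slope over the root of F, and calls at an adjusted p under 0.05. Scripts were tested on simulated data. Alternatives were RLE factors, no filter, DESeq2 1.42.0, limma 3.58.1 on log2 TPM (pseudocount 1 or 0.1, mean of at least 1), the total count as a covariate, thinning to 241442 counts, and leaving out each follicle. Relations with marker lists and the correlations within the 7 follicles of higher Sult1e1 were added after seeing the data.

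Named genes were to be the 20 called for spread with the highest ratio (none was called), up to 3 called genes of each list, the 5 steepest called slopes each way where mean log2 CPM reached 4, and 25 genes of ovulation always. Genes named outside that rule (Ephx2, Gsta4, Inha, Por, mt-Co3, Slc38a5, members of the groups and other single genes with a follicle far from the rest) were chosen after their values were seen. The genes, lists and tests were all chosen with earlier results of these data known. Positions are from GENCODE M21 (GRCm38).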

Additional observations from a re-analysis of the deposited data

Results flagged for a closer look

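Of 123 measures checked over the 10 follicles, 36 had a highest or lowest follicle far from the others (gap to the nearest follicle over the whole range above Dixon's 95% critical value for 10 samples). Chance flags about 1 in 20 groups, but many of these genes were named for their wide spread, so the share flagged here cannot be read against that.

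Follicle 4 stood highest for Areg (1927 CPM), Cyp19a1 (70.4), the transcription regulator Crem (143), the kinase Sik1 (67.6), the neuropeptide Npy (254), Snap25 (31.4), a protein of vesicle release, and Prkg2 (29.4), a cyclic GMP-dependent kinase.

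Follicle 9, the lowest for Ptgs2, stood highest for 4 genes of the follicular phase list, Esr2 (91.3 CPM), Igf1 (1464), Fst (765) and Grb14 (452), but lowest for 2 others of that list, Cyp19a1 (9.08) and Ccnd2 (32.7). It was also highest for Egr2 (60.9), Sirt5 (640), Fmo1 (85.8), Tshz1 (92.7) and a provisional gene model named for a genomic clone (1661).

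Follicle 10, the shallowest library, had the fewest genes with a count (8964). It stood highest for Acta2 (1503 CPM), Mgp (362), Aldh1a1 (342), Cyp1b1 (318), Apoe (708), Cdh5 (63.6), Nppc (31.8), the smooth muscle markers (1639) and the endothelium markers (147). The part of its depth in these values was not tested.

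Follicle 8 stood highest for Col1a2 (485 CPM), the protease Adamts4 (150), Myl9 (55.9) and the surface epithelium markers (58.2). Follicle 3 stood alone for Slc38a5, an amino acid transporter (939 CPM against at most 125 elsewhere). Follicle 7 stood alone for Gm10800 (120390 CPM), Gm10801 (11772), Gm10717 (10749), Gm10718 (8425) and the share of counts in their group (16.0%).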

How the results depend on the processing

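Of the alternatives for single genes and pairs, 1275 kept direction and side of the threshold, 126 lost a call, 29 gained one, 40 values without a test moved and 0 reversed. For spread, edgeR called 307 genes with no filter on low counts and DESeq2 marked 110; without each follicle edgeR called 0. On Ptgs2, DESeq2 called 216 genes, thinned libraries 6, and leaving out each follicle gave 10 to 168. On Sult1e1, DESeq2 called 183, the total count as covariate 105, thinning 13, and leaving out each follicle 15 to 110. On Star, DESeq2 called 25 and leaving out each follicle gave 0 to 9. On depth, RLE factors called 2 genes, DESeq2 45, and leaving out each follicle 0 to 3. Between 10 and 17 pairs passed without each follicle. The first component held 29.1% of the variance without follicle 10. Thinning left fewer genes to test (2479 against 7528); the cause of the other differences was not tested. No paired analysis was possible because the follicles form 1 group in which each replicate number occurs once. Depth limits mainly Lhcgr, Zp3, Foxl2 and Cyp17a1 and every low gene in follicle 10.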
